A study of Apis mellifera with 24 samples.

Results

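Brains of 12 honey bee workers from 2 families, lineages L894 and L888, were compared by polyA RNA sequencing, out of 24 bees in the whole study. The members were chosen by their labels: all 6 bees of lineage L894, from block B, and all 6 of lineage L888, from block A. Both families came from the same direction of a reciprocal cross, with an Africanized mother and a European father (Afr x Eur), and each gave 3 reproductive and 3 sterile workers. All bees were raised for about 18 days in queenless colonies, a setting in which some workers become reproductive. The other 12 bees came from the reverse cross (Eur x Afr), lineage L882 in block B and lineage L875 in block A. The labels do not say what a block stands for. Each side of the comparison was a single family in a single block, so family and block cannot be told apart in it, and p-values cover the spread between sisters and not between families.

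Honey bees are haplodiploid. A drone hatches from an unfertilised egg and is haploid, so all daughters of a drone receive his whole genome, while daughters of a queen differ in which of her gene copies they receive. Sisters thus share the father's copy of every gene and can differ in the mother's copy, and families of the same cross direction differ in both parents. Africanized bees descend from African bees brought to the Americas, and they have mixed there with bees of European origin. In brain, differences between families can involve nerve and glial cells as well as any tissue dissected along with them. The tables pair none of the 15314 gene identifiers with a name, and 0 of them occur in the reference table, so no marker of a tissue or cell type could be checked and genes are given by identifier.

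The libraries of the families differed before any single gene was considered. Total expected counts were 13.6 M ± 2.05 in L894 and 9.64 M ± 0.952 in L888 (SD, n = 6 each), where M is mega-counts. The 10 most abundant identifiers of each bee took 31.8% to 71.2% of its counts in L894, with a mean of 49.98% ± 14.9, and 10.02% to 41.6% in L888, with a mean of 22.4% ± 13.2 (SD, n = 6 each). The difference in this share was 27.5 points, and an exact two-sided permutation test of family within status gave p = 0.01 (adjusted p = 0.015 over 3 measures), where 0.005 is the smallest p that 400 labellings allow. Identifiers with at least 1 count were fewer in L894, at 10754 ± 128 against 10984 ± 109 (SD, n = 6 each; exact permutation p = 0.015, adjusted p = 0.015). For total counts the exact permutation p was 0.01 (adjusted p = 0.015). The ranges of the share overlapped, with L888 Sterile 2 at 41.6% and L888 Reproductive 2 at 32.1% inside the range of L894. Of the 25 distinct identifiers that made up these shares, 2 passed the test between the families, both lower in L894. Over all genes tested 10.1% passed, so 2 of 25 is not a result about these identifiers. The log2 fold change was positive, that is higher in L894, in 14 of the 25. The share was 42.7% ± 19.1 in L875 and 36.5% ± 18.8 in L882 (SD, n = 6 each), so L888 had the lowest mean of the 4 families and L894 the highest.

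**Figure D1:**
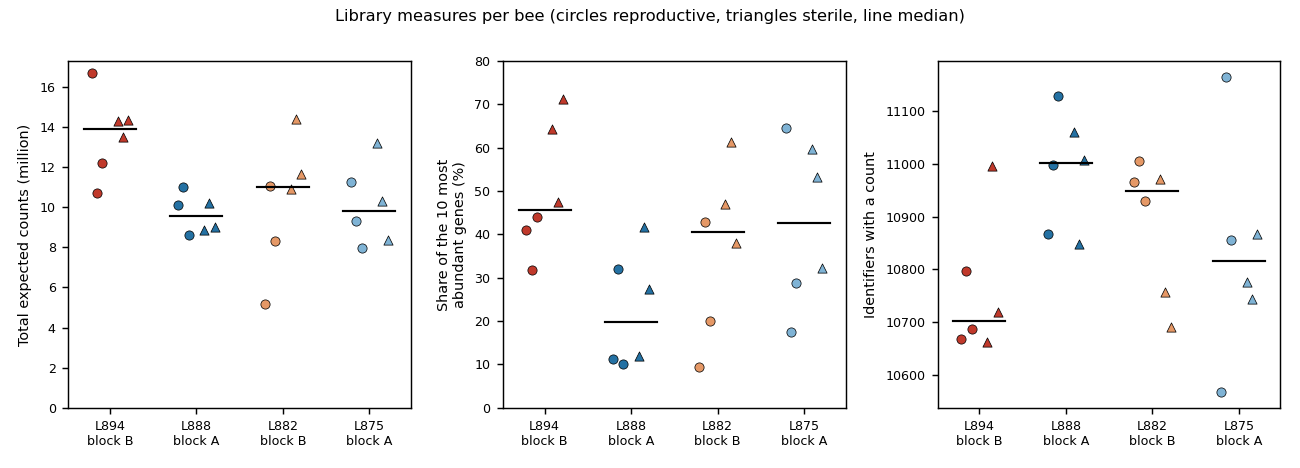
Total expected counts in M (the axis gives the same unit), the percentage of counts in the 10 most abundant identifiers and the number of identifiers with a count, for each of the 24 bees by family; circles are reproductive bees, triangles sterile bees and lines family medians. The 6 bees of L894 run from 31.8% to 71.2% in the middle panel and the 6 of L888 from 10.02% to 41.6%; the axis of the right panel does not start at 0.

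Between the families, 1022 of 10071 tested genes differed in level (10.1%), 429 higher (4.26%) and 593 lower (5.89%) in L894, at an adjusted p under 0.05 in edgeR. Most of these differences were modest. The median absolute log2 fold change of the 1022 called genes was 0.84, beside 0.32 over all genes tested. Under 1.5-fold lay 183 of them, and 373 exceeded 2-fold, of which 149 were higher and 224 lower in L894. Beyond 4-fold there were 100 genes, 30 higher and 70 lower. The median log2 fold change over all genes was -0.05. In bulk tissue, fewer cells of a type and less RNA per cell cannot be told apart.

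The 6 bees of L894 and the 6 of L888 lay fully apart in CPM (counts per M of the TMM-scaled library total) for 331 of the 1022 called genes. Over all genes tested the ranges lay apart for 441 (4.38%), and 3.29% were both apart and called. In the other 691 called genes at least a bee of either family reached into the range of the other. Called genes were found at all levels of expression. With genes ranked by level and cut into 4 bins of equal size, 6.71% were called in the lowest bin, then 9.81%, 12.5% and 11.6% in those above it. The median absolute log2 fold change of the called genes was 1.94, 0.98, 0.75 and 0.69 in the same order. Identifiers with consecutive numbers were both called in 94 of 7303 tested pairs (1.29%), in the same direction in 63 and in opposite directions in 31. After a called gene, the next identifier was called in 12.9% of cases, beside the 10.1% over all genes.

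**Figure D2:**
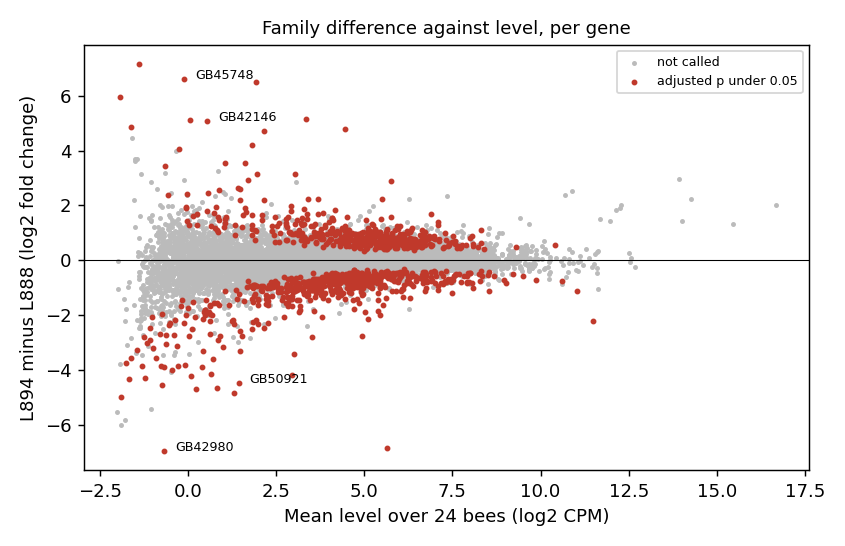
Log2 fold change of L894 minus L888 against the mean level over 24 bees in log2 CPM, 1 point per gene tested. The 1022 called genes are in red; the 4 labelled genes are those described singly for this comparison, and most called genes lie within 2-fold of equality.

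The number of called genes was much lower in a fit with the composition of the libraries as a covariate. Each gene's level was correlated with the share of the 10 most abundant identifiers within the 8 groups of all 24 bees. In 940 of the 1022 genes (91.98%) this correlation had the sign of the family difference, beside 74.4% of all genes tested. Correlations near 0 count here too, and none was tested. With that share as a covariate, 22 genes were called (0.218%), 6 higher and 16 lower in L894, and 20 of these were among the 1022. Family and share went together in these bees, so that fit cannot tell them apart for genes that follow both, and the part of the share in the count was not tested. With a minimum of 1.5-fold in the test, 28 genes were called (0.278%), 9 higher and 19 lower in L894. The ranges of the families lay apart for 24 of these 28 genes, beside 4.38% of all genes tested. That is in part built in, since the 28 were picked for their difference between these same bees. Of the 28, 15 were also called with the covariate, and in 18 the correlation with the share had the sign of the family difference.

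Single bees also moved the count. Leaving out L888 Sterile 2 gave 1798 genes. Leaving out another bee gave 104 (L894 Sterile 1), 114 (L888 Reproductive 3), 149 (L888 Sterile 1), 173 (L888 Sterile 3), 238 (L894 Sterile 3), 281 (L894 Reproductive 1), 384 (L894 Reproductive 3) or 425 genes (L894 Reproductive 2). The remaining 3 bees gave 790 to 1263. The balance of directions moved as well. Lower genes outnumbered higher ones with all bees and in most of the other fits. Higher genes outnumbered lower ones only without L888 Reproductive 2 (646 and 617), in limma voom (532 and 488) and with only the 12 bees of these families (693 and 595). In every one of the 12 fits with a bee left out the same 83 genes were called, 28 higher and 55 lower in L894. All 28 genes of the test with a minimum of 1.5-fold were among the 83, and 15 of the 83 were called with the covariate. Their median absolute log2 fold change was 1.40 and the smallest was 0.54. The families' ranges lay apart for 60 of the 83 genes, beside 331 of the 1022 and 4.38% of all genes tested. Ranges apart are in part built into the choice of these genes. In 69 of the 83 the correlation with the share had the sign of the family difference, beside 74.4% of all genes tested.

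**Figure D3:**
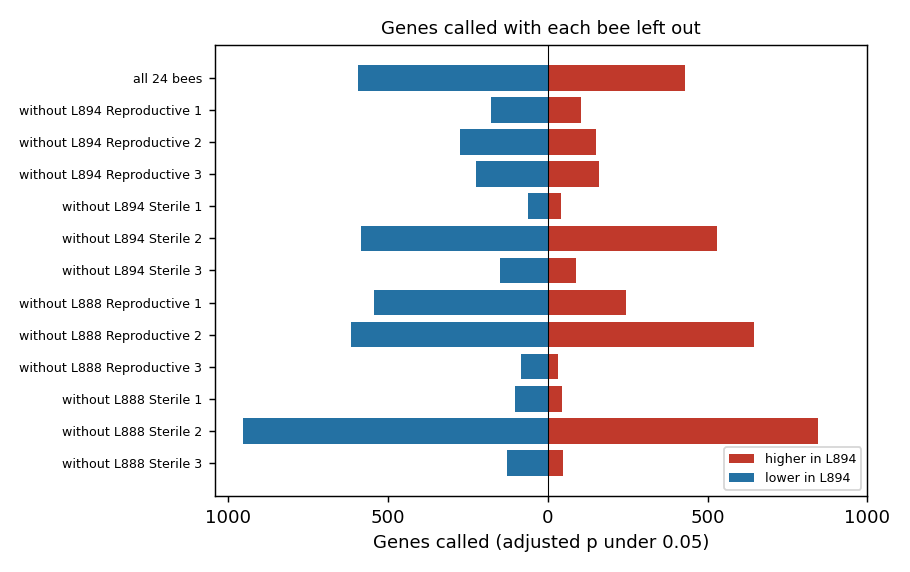
Number of genes called in L894 against L888 with all 24 bees and with each of the 12 bees of these families left out; red bars to the right count genes higher in L894 and blue bars to the left genes lower in L894. The total runs from 104 without L894 Sterile 1 to 1798 without L888 Sterile 2, against 1022 with all bees.

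Among genes higher in L894, GB45748 had the largest difference with ranges apart. Its level in L894 had a lowest value of 1.17, a median of 4.58 and a highest value of 7.81 CPM, and in L888 the same values were 0, 0 and 0.129 CPM. It thus had a count in every L894 bee and none in 4 of the 6 L888 bees, with 328 counts summed over L894 and 3 over L888. The ratio of summed counts after scaling was 129.9 (95% interval 44.05 to 633, exact binomial, counting error only). The fitted log2 fold change was 6.61 (SE 0.63, adjusted p = 8.23e-06), a value that depends on the prior count because L888 was near 0. The other block B family resembled L894 at 2.82 to 5.01 CPM (L882), and the other block A family resembled L888 at 0 to 0.174 CPM (L875).

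GB42146 had the smallest p of the remaining genes on this side. In L894 the lowest, median and highest values were 1.09, 3.55 and 6.52 CPM, and in L888 they were 0, 0.0333 and 0.348 CPM. All 6 bees of L894 stood above all 6 of L888, and 3 bees of L888 had no count. The summed counts were 249 against 7, a ratio of 42.3 (95% interval 20.2 to 106, exact binomial, counting error only), with a fitted log2 fold change of 5.09 (SE 0.52, adjusted p = 8.23e-06). L875 lay between, at 0.528 to 1.91 CPM, and L882 stood at 3.12 to 5.37 CPM.

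Among genes lower in L894, GB50921 had the smallest p of all genes. In L888 its lowest, median and highest values were 20.03, 24.7 and 29.99 CPM, and in L894 they were 0.419, 1.14 and 2.08 CPM. The means were 24.8 ± 3.19 and 1.17 ± 0.538 CPM (SD, n = 6 each), so the sisters within a family differed little beside the gap between the families. The log2 fold change was -4.47 (SE 0.33, adjusted p = 9.02e-08). L888 stood apart from the other 18 bees as a whole, since L882 had 0.615 to 2.14 CPM and L875 had 0.514 to 1.69 CPM.

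GB42980 had the largest difference on the lower side with ranges apart. Its lowest, median and highest values in L888 were 2.26, 4.35 and 5.93 CPM, and in L894 they were 0, 0 and 0.189 CPM. It had 348 counts summed over L888 and 4 over L894, where 4 of the 6 bees had none. The ratio was 73.2 in favour of L888 (95% interval 28.4 to 270.3, exact binomial, counting error only), and the fitted log2 fold change was -6.96 (SE 0.92, adjusted p = 4.19e-04). That fitted value depends on the prior count because L894 was near 0. In L882 the gene ran from 0 to 2.002 CPM, with 3 of 6 bees at 0, and in L875 from 0 to 0.330 CPM.

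**Figure D4:**
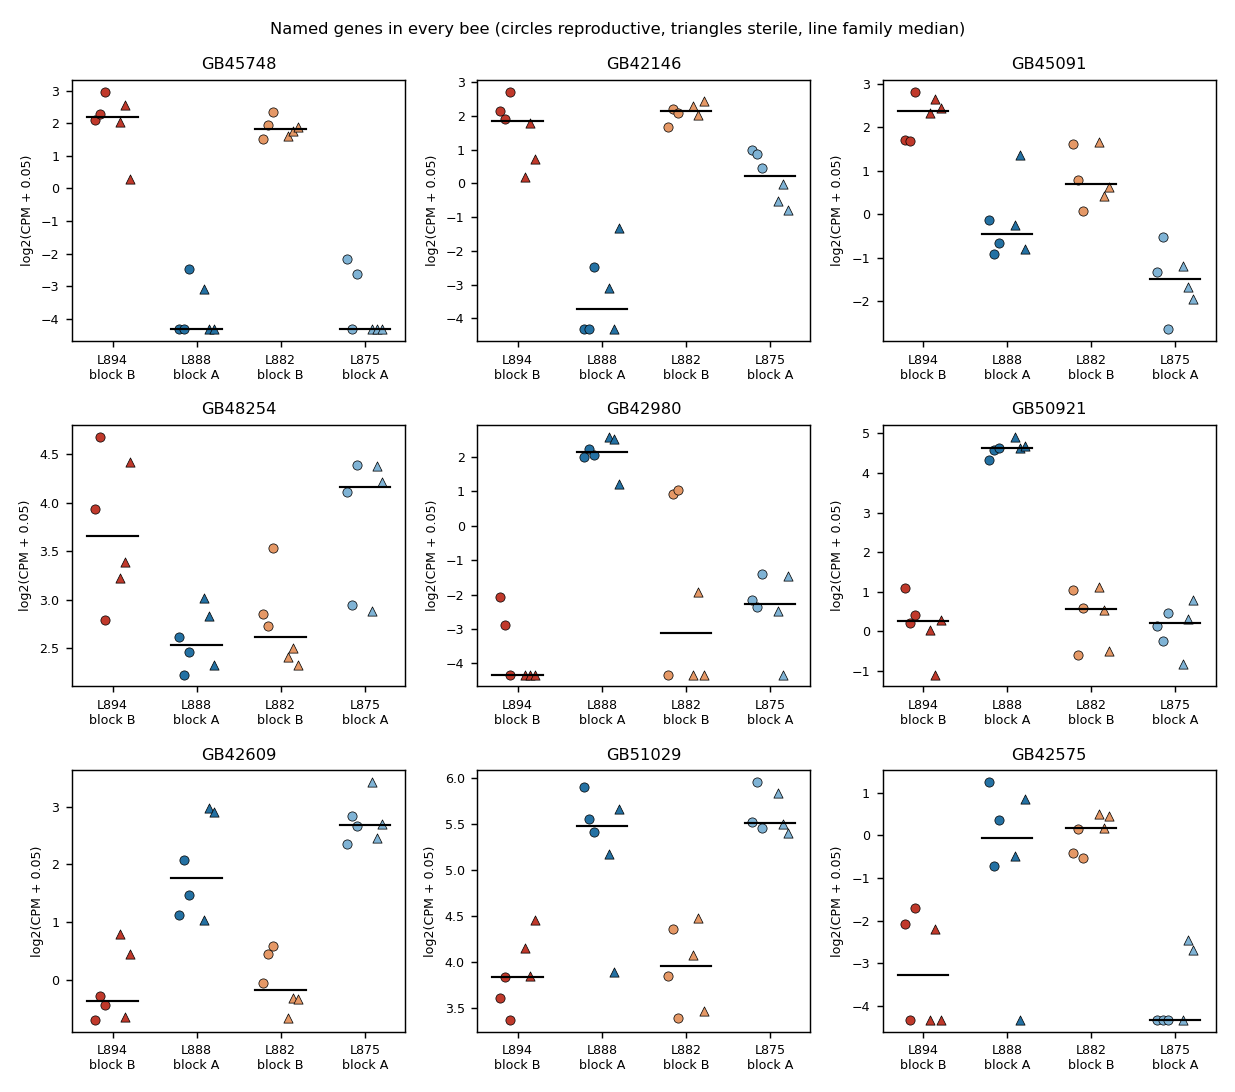
Level of the 9 genes described singly in each of the 24 bees, as log2(CPM + 0.05), by family; circles are reproductive bees, triangles sterile bees and lines family medians. In GB50921 the 6 bees of L888 stand above all 18 others, in GB45748 both block B families stand above both block A families, and in GB42575 L888 and L882 stand higher, with L888 Sterile 2 at 0.

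A family that stood apart from all 18 other bees was rare. L888 was above all others in 6 of the 10071 genes (0.0596%) and below in 2 (0.0199%). L894 was above all others in 4 genes (0.0397%) and below in 1 (0.00993%). In L875 these counts were 4 and 2, and in L882 they were 0 and 2.

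Reproductive and sterile bees were then compared separately. Among reproductive bees 20 genes differed between the families (0.199%), 4 higher (0.0397%) and 16 lower (0.159%) in L894, and among sterile bees 10 genes (0.0993%), 2 higher (0.0199%) and 8 lower (0.0794%). All 20 and all 10 were among the 1022, and 6 genes were called in both, each in the same direction. These 6 were 30% of the first list, beside the 0.0993% of all genes tested that were called among sterile bees. They were 60% of the second, beside the 0.199% called among reproductive bees. Each of these contrasts rested on 3 bees against 3. The family difference had the same sign in both statuses in 1021 of the 1022 genes, beside 71.7% of all genes tested. Since the family contrast is the mean of both statuses, a shared sign is in part built into the choice of called genes.

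The count among reproductive bees was 8 without L894 Reproductive 1, 9 without L888 Reproductive 1 or L894 Reproductive 3, 11 without L888 Reproductive 3 and 75 without L888 Sterile 2. Among sterile bees it was 2 without L894 Sterile 2, 4 without L888 Sterile 1, 5 without L888 Sterile 3 or L894 Sterile 3, and 6 without L894 Sterile 1. GB50921 was called in both, with log2 fold changes of -3.91 (SE 0.45, adjusted p = 1.87e-04) in reproductive and -5.02 (SE 0.49, adjusted p = 1.39e-05) in sterile bees. GB45748 had 6.63 (SE 0.85, adjusted p = 6.27e-04) and 6.60 (SE 0.93, adjusted p = 0.00483), and GB42146 had 6.40 (SE 0.77, adjusted p = 2.48e-04) and 3.78 (SE 0.70, adjusted p = 0.0308). For GB42980 the values were -5.26 (SE 1.05, adjusted p = 0.0421) and -8.66 (SE 1.54, adjusted p = 0.0308). No sterile bee of L894 had a count of GB42980. In GB45748, GB42146 and GB42980 the lower family was near 0, so the sizes of these values depend on the prior count.

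Whether the family difference itself changed with reproductive status was tested directly. No gene passed in edgeR (0 of 10071, 0%), with 315 genes at an unadjusted p under 0.05. DESeq2 and limma voom also called 0 genes, and edgeR called 1 gene without L888 Sterile 3. The interaction of GB42146, the difference of its log2 fold changes, was 2.62 (SE 1.16, adjusted p = 0.998). In the headers of the allele tables, the letters A and I stand the other way round in L888 than in the other families, and the labels were followed here. Exchanging the status of L888 gave the same 1022 genes for the family comparison by construction, while the counts within a status rest on the labels.

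The families of the reverse cross were compared in the same way. Their bees enter neither side of the contrast of L894 with L888, but both contrasts come from the same fit and share its estimate of the spread. L882 (block B) against L875 (block A) differed in 87 genes (0.864%), 16 higher (0.159%) and 71 lower (0.705%) in L882. Called in both pairs of families were 25 genes. They were 2.45% of the 1022, beside the 0.864% of all genes tested that were called in the second pair. They were 28.7% of the 87, beside the 10.1% of all genes tested that were called in the first. Of the 25 genes, 24 differed in the same direction (0.238% of all tested), 3 higher and 21 lower in block B, and 1 in the opposite direction. Of the 1022 genes 65.9% had the same sign in L882 against L875, whether called there or not, beside 53.7% of all genes tested. Across the 10071 genes the log2 fold changes of the pairs were related with Pearson's r = 0.10, and genes are not independent replicates.

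The 87 genes became 32 to 51 without L875 Reproductive 3, L875 Sterile 3, L882 Reproductive 1 or 2, or L882 Sterile 1, 2 or 3. The 24 shared genes became 10 without L894 Sterile 1, 13 without L888 Reproductive 3, L888 Sterile 1, L888 Sterile 3, L894 Reproductive 1 or L894 Reproductive 3, 14 without L894 Sterile 3 and 15 without L894 Reproductive 2 or L875 Reproductive 3.

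**Figure D5:**
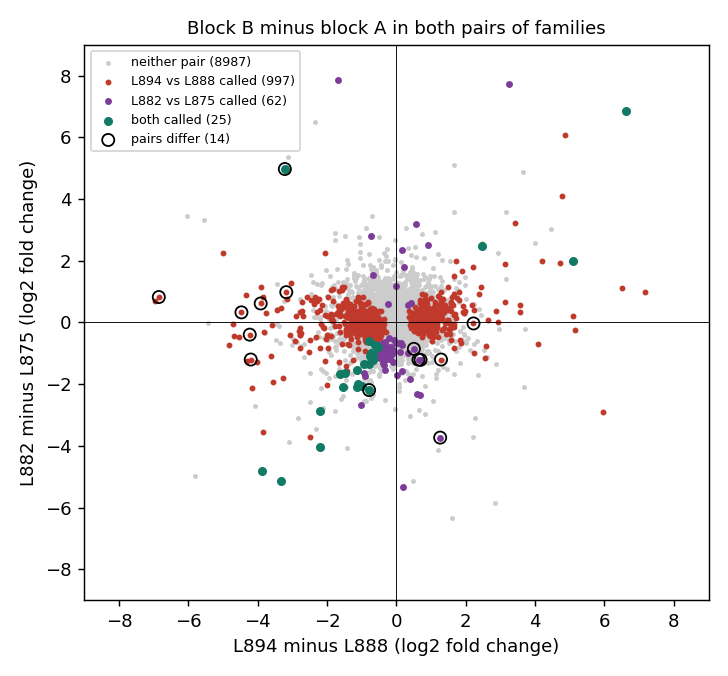
Log2 fold change of L882 minus L875 against that of L894 minus L888, 1 point per gene, both block B minus block A. The 25 genes called in both pairs are in green, 24 of them with the same sign on both axes, and the 14 genes whose difference itself differed between the pairs are ringed.

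GB45748 and GB45091 had the smallest p among the genes higher in block B in both pairs. For GB45748 the log2 fold change in the second pair was 6.86 (SE 0.74, adjusted p = 5.59e-05), beside 6.61 in the first. GB45091 had a lowest, median and highest level of 3.16, 5.17 and 7.04 CPM in L894 and of 0.479, 0.691 and 2.51 CPM in L888. Its log2 fold change was 2.46 (SE 0.42, adjusted p = 0.00388). L882 had 1.001 to 3.11 CPM and L875 0.110 to 0.643 CPM, a log2 fold change of 2.49 (SE 0.48, adjusted p = 0.0145). The block B family was above the block A family in every bee of both pairs, but the pairs stood at different levels, and L888 overlapped L882. With the share of the 10 most abundant identifiers as a covariate, the log2 fold change of GB45091 between L894 and L888 was 2.44, as large as without it, and the adjusted p was 0.0779.

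GB42609 and GB51029 had the smallest p among the genes lower in block B in both pairs. In GB42609 the lowest, median and highest values were 0.566, 0.728 and 1.69 CPM in L894 and 1.999, 3.43 and 7.85 CPM in L888, with ranges apart. The log2 fold change was -2.21 (SE 0.35, adjusted p = 0.00167), and in the second pair, with 0.582 to 1.46 CPM in L882 and 5.04 to 10.7 CPM in L875, it was -2.86 (SE 0.35, adjusted p = 1.40e-04).

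GB51029 ran from 10.3 through a median of 14.3 to 21.9 CPM in L894 and from 14.8 through 44.6 to 59.5 CPM in L888. A single bee, L888 Sterile 2 at 14.8 CPM, made the ranges overlap, and the other 5 bees of L888 had at least 36.1 CPM. The log2 fold change was -1.47 (SE 0.24, adjusted p = 0.00305). Among reproductive bees it was -2.02 (SE 0.35, adjusted p = 0.00932) and among sterile bees, which include that bee, -0.92 (SE 0.34, adjusted p = 0.307). In the second pair L882 had 10.5 to 22.2 CPM and L875 42.2 to 61.8 CPM, a log2 fold change of -1.64 (SE 0.24, adjusted p = 0.00136).

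The difference between the pairs was also tested directly, and 14 genes passed (0.139%), 7 higher (0.0695%) and 7 lower (0.0695%) in L894 minus L888. Of these, 10 were called in L894 against L888 and 6 in L882 against L875. This count depended on single bees. It was 300 without L888 Sterile 2, 137 without L875 Reproductive 2 and 105 without L888 Reproductive 1. It was 6 to 9 without L894 Reproductive 1 or 2, L894 Sterile 1, L888 Reproductive 3, L875 Reproductive 3, L882 Reproductive 1 or L882 Sterile 1. GB50921 had the smallest p, with a difference between the pairs of -4.79 on the log2 scale (SE 0.47, adjusted p = 1.42e-05). In L882 against L875 its log2 fold change was 0.33 (SE 0.34, adjusted p = 0.658).

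Among the 10 genes also called between L894 and L888, GB42575 had the largest difference between the pairs on the lower side. It was low everywhere, with a lowest, median and highest level of 0, 0.0838 and 0.257 CPM in L894 and of 0, 0.947 and 2.31 CPM in L888. L888 Sterile 2 had no count, so the ranges overlapped. L882 had 0.637 to 1.36 CPM in all 6 bees and L875 0 to 0.132 CPM, so that the higher family was in block A in the first pair and in block B in the second. L875 had 2 counts summed over its 6 bees and L894 was also near 0, so the fitted values depend on the prior count. The log2 fold changes were -3.22 (SE 0.77, adjusted p = 0.0213) and 4.97 (SE 1.01, adjusted p = 0.0214), and their difference was -8.19 (SE 1.26, adjusted p = 0.00980). With the covariate that difference was -7.60 and lost its call (adjusted p = 0.0600). In summed counts, L888 had 91 and L894 had 8, a ratio of 9.58 (95% interval 4.66 to 22.9, exact binomial, counting error only). The adjusted p between L894 and L888 was over 0.05 without L888 Reproductive 3 (0.0573), L888 Sterile 1 (0.0503), L888 Sterile 3 (0.0696), L894 Sterile 1 (0.0645) or L894 Sterile 3 (0.0545), and also with a minimum of 1.5-fold (0.134) and with the covariate (-2.63, adjusted p = 0.464).

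Among the same 10 genes, GB48254 had both the largest difference between the pairs and the smallest p on the higher side. Its lowest, median and highest values were 6.86, 12.8 and 25.6 CPM in L894 and 4.63, 5.76 and 8.06 CPM in L888. The ranges overlapped through L894 Reproductive 3. The log2 fold change was 1.29 (SE 0.32, adjusted p = 0.0236). That call was lost without L888 Reproductive 3, L888 Sterile 1 or 3, L894 Reproductive 2 or L894 Sterile 3, with a minimum of 1.5-fold and with the covariate (adjusted p 0.0568 to 0.319). With the covariate the log2 fold change itself was 1.33. In the second pair L875 was the higher family, at 7.33 to 20.9 CPM beside 4.96 to 11.6 CPM in L882, with a log2 fold change of -1.20 (SE 0.32, adjusted p = 0.0786). The difference between the pairs was 2.49 (SE 0.46, adjusted p = 0.0226), and it lost its call in limma voom (adjusted p = 0.104), with a minimum of 1.5-fold (adjusted p = 0.0851), with the covariate (2.54, adjusted p = 0.182) and without any of 8 single bees (adjusted p of at most 0.0597).

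Reads assigned to the paternal (drone) or maternal (queen) allele gave another view of the same libraries. Of 2371 tested genes with at least 20 allele reads in each of the 12 bees, 233 were called between the families (9.83%). The mean paternal share differed by at least 10 points between the families in 67 of the 233 (28.8%), beside 592 of the 2371 (24.97%). The median paternal share of the 233 genes was 52.8% in L894 and 52.3% in L888, beside 52.6% and 52.7% over the 2371. These medians over genes do not describe the shares of single genes, and no test was made.

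The allele tables and the expression table differed widely gene by gene. Over 3524 genes in both allele tables, log2(reads + 1) was related to log2(expected counts + 1) with Pearson's r of only 0.24, and 295 listed genes had no expected count in any of the 24 bees. Allele reads exceeded expected counts more than 10-fold in 28.8% of the listed genes. GB42609 was such a gene, with 6075 to 7705 allele reads in the sterile bees of both families beside 7 to 14 expected counts in L894 and 30 to 86 in L888. Its allele reads overlapped between the families, at 6075 to 7271 in L894 and 6852 to 7705 in L888, whereas its expected counts in the same bees did not. Summed allele reads from the same libraries were fitted in the same way, an alternative chosen after the data were seen. That fit held 280 of the 1022 genes called on expected counts. The sign was the same in 241 of the 280 (86.1%), beside 68.7% of the 2891 genes fitted on both measures. Called in both fits were 84 genes, out of 483 called among the 3518 tested on allele reads. Across the 2891 genes the log2 fold changes were related with Pearson's r = 0.49, and genes are not independent replicates.

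GB51029 was listed in both allele tables. Its family difference in summed allele reads was -1.49 on the log2 scale (SE 0.32, adjusted p = 0.00485). In reproductive bees the paternal share was 44.8% ± 4.27 in L894 and 25.7% ± 4.19 in L888 (SD, n = 3 each). These shares rested on only 20 to 67 allele reads per bee in L894 and on 125 to 253 in L888. In sterile bees of L888 it was 26.6% in 1 bee and 31.8% in another, and 88.9% in L888 Sterile 2, on 27 allele reads. That was the same bee in which the total level was low, and there the maternal reads numbered 3 and the paternal reads 24. The sterile bees of L894 had a share of 50.2% ± 2.35 (SD, n = 3), on 40 to 66 allele reads per bee. For GB48254, the summed allele reads differed by 1.45 on the log2 scale (SE 0.44, adjusted p = 0.0312). Bee by bee its measures differed. L894 Sterile 1 had the most allele reads, 990, beside 77 expected counts, the fewest of L894. Its paternal share ran from 34.8% to 66.5% in L894 and from 29.7% to 73.9% in L888.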

How the data were processed

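Paired-end libraries were made from the polyA RNA of individual brains, per the labels' protocols. HISAT2 and limma occur in the submitters' processing notes with no version and no role. The sources used here give no counting tool, build or annotation, so genes with near-identical copies or overlaps are uncertain. The authors deposited expected counts (87.3% whole) for 15314 identifiers, of which 2842 had no count after rounding. Allele-specific counts are whole reads for the drone's and the queen's allele, per the file headers. Groups came from the labels, and the members and 16 gene lists were chosen with earlier results of these data known; 0 list members could be matched.

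Rounded counts were filtered with filterByExpr on the 8 groups (10071 genes) and fitted over all 24 bees with 1 mean per group (TMM, quasi-likelihood tests, edgeR 4.0.16, R 4.3.3). The family contrast averaged both statuses. Tests were two-sided, with Benjamini-Hochberg adjustment over all genes. SE is the log2 fold change over the root of F. An adjusted p is edgeR's except where the text names DESeq2 (1.42.0) or limma voom (3.58.1). CPM uses TMM-scaled totals. Without names, at most 2 identifiers per direction were named per comparison: the largest called difference with ranges apart and a mean of at least 1 CPM, and the smallest p among the others. For genes called in both pairs these were the smallest of the larger p, and for the difference between pairs the largest estimate and the smallest p among genes also called between L894 and L888. The alternatives planned were other size factors, filters, tools, designs, a covariate, a minimum of 1.5-fold and each bee left out. The summed allele reads were added after the data were seen. The main fit was run on simulated data, with counts drawn independently for each gene. Those data held no shift in library composition and no deviant bee, so they say nothing about the effect of either. No libraries held identical values.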

Additional observations from a re-analysis of the deposited data

Results flagged for a closer look

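The family difference itself differed between the pairs of families in 14 genes, by a direct test in edgeR. The 3 of them described singly are given here. They were picked for the size or the p of this same difference, among genes also called between L894 and L888. GB50921 had a difference between the pairs of -4.79 on the log2 scale (SE 0.47, adjusted p = 1.42e-05), GB42575 of -8.19 (SE 1.26, adjusted p = 0.00980) and GB48254 of 2.49 (SE 0.46, adjusted p = 0.0226). With the share of the 10 most abundant identifiers as a covariate, GB42575 (-7.60, adjusted p = 0.0600) and GB48254 (2.54, adjusted p = 0.182) lost the call. The size of the difference in GB42575 depends on the prior count, because L894 and L875 were near 0.

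In 2 of 24 groups of 6 bees, 1 bee lay far from its sisters. Chance gives about 1 in 20 groups if values are normally distributed, which levels resting on a few counts are not. The groups also share bees, and the named genes were picked from these same data. The 2 groups thus cannot be told from chance, and their values are given only as a description. GB42146 had 0.348 CPM in L888 Sterile 3, on 4 counts, and 0 to 0.129 CPM in the other 5 bees of L888. GB45091 had 2.51 CPM in L888 Sterile 2, and 0.479 to 0.859 CPM in its 5 sisters.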

How the results depend on the processing

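No paired analysis was made, since the labels pair no bees. The labels give no replicate numbers, so the number of a bee within its group follows the order of the samples. For L894 against L888, 1022 genes became 1634 in DESeq2, 22 with the share of the 10 most abundant identifiers as a covariate and 28 with a minimum of 1.5-fold; 104 to 1798 were called with a bee left out, and 1288 (693 higher, 595 lower) with only the 12 bees of these families. DESeq2 shared 1020 genes with the 1022, and limma voom 879 of its 1020. In reproductive bees, 20 genes became 494 in DESeq2, 36 in limma voom, 11 with the covariate, 12 with the minimum change, 116 with only 12 bees and 8 to 75 with a bee left out. In sterile bees, 10 became 70 in DESeq2, 3 with the covariate, 3 with the minimum change and 2 to 11 with a bee left out. The interaction gave 0 or 1 with a bee left out. For L882 against L875, 87 became 371 in DESeq2, 249 with the covariate, 15 with the minimum change and 32 to 111 with a bee left out. For the difference between pairs, 14 became 286 in DESeq2, 23 in limma voom, 22 with additive terms, 9 with the covariate, 4 with the minimum change and 6 to 300 with a bee left out. The 24 genes shared by both pairs became 79 in DESeq2, 6 with the covariate, 4 with the minimum change and 10 to 30 with a bee left out. The cause of these moves was not tested, except that a minimum change and fewer bees alter what is tested by construction. With a bee left out, the family difference was 3.38 to 4.58 M in total counts, -278.3 to -201.4 in identifiers with a count and 23.3 to 31.4 points in the share, with an exact permutation p of at most 0.035.

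The named genes gave 292 values under the alternatives, 265 on the same side of the threshold, 27 weaker and 0 reversed. These include the fit with the status of L888 exchanged, which repeats the main values by construction. With the minimum of 1.5-fold the estimates were those of the main fit, so none could reverse. The genes were also named for their size or p in these same data. GB45748, GB42146, GB42980, GB50921, GB42609 and GB51029 passed between L894 and L888 in every alternative that gave a value. GB48254 and GB42575 each lost that call in 7 alternatives, with adjusted p up to 0.319 and 0.464. GB48254 lost its difference between the pairs in 11 of 32. At 5.19 to 16.7 M counts per bee, genes near 1 CPM rest on few counts in each bee.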
